A study of Homo sapiens with 9 samples.

Results

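The proteasome is described here through 44 genes of MDA-MB-453 breast cancer cells, which encode its subunits and its dedicated assembly factors. Members were found by name: every gene symbol of the count table that consists of PSM, a letter from A to G and a number was taken, apart from PSMB8 and PSMB9. Of 59452 gene symbols or identifiers in the table, 46 matched, and 44 had at least 10 estimated counts in each of the 9 libraries. PSMA8, an alpha subunit of germ cells, and PSMB11, a beta subunit of the thymus, had 0 estimated counts in all 9 libraries. A count of 0 allows up to 3 counts per library, an upper limit that covers counting error only.

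The proteasome is the large protease that degrades proteins tagged with ubiquitin. Its 20S core is a barrel of stacked alpha and beta rings, in which 3 beta subunits (PSMB5, PSMB6 and PSMB7) carry the active sites. The 19S regulatory particle caps the barrel. Its base holds a ring of ATPases that unfolds substrates and threads them into the core, and its lid removes ubiquitin chains. Chaperones build the rings and the base and are absent from the finished particle, while separate activators and an inhibitor bind the barrel ends. Transcription of the subunit genes is known to be raised together by the factor NFE2L1 when proteasome activity falls.

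MDA-MB-453 is an established human breast cancer line, described in the sample labels as triple negative and wild type. Cells were grown for 48 hours in 3 conditions with 3 libraries each. Attached cells with vehicle (DMSO) grew on ordinary plates, suspension cells with vehicle grew on plates coated with poly-HEMA, which prevents adhesion, and suspension cells with AT0174 grew on the coated plates with 10 µM of this agent, which the study describes as an inhibitor of the tryptophan-catabolising enzymes TDO2 and IDO1. All 9 libraries come from 1 line, attached cells with AT0174 were not analysed here, and the study states biological triplicates. The comparison of suspension with attached vehicle cells addresses growth without adhesion, and the comparison of AT0174 with vehicle in suspension addresses the agent.

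The libraries held 36650000 to 48019100 estimated counts, of which the members took 0.583% to 0.655%. The labelled cell type was checked with markers. The epithelial markers KRT8, KRT18 and EPCAM were each above 70 TPM (transcript abundance corrected for length and library total) in all 9 libraries, and VIM, PTPRC and PECAM1, markers of mesenchymal, blood and endothelial cells, were at or near 0. COL1A1, a collagen gene listed as a marker of other cells, was present at 60.2 ± 5.4 TPM (SD, n = 3) in attached cells and 54.6 ± 1.6 TPM in suspension vehicle cells. Mitochondrially encoded RNA moved with the culture condition, at 7.56% to 9.32% of counts in attached cells, 4.05% to 4.34% in suspension vehicle cells and 3.73% to 5.51% in suspension AT0174 cells. Its part in the results below was not tested.

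Sequence upstream of the genes is shown for 4 members that changed in suspension culture, as examples of the promoters of core subunits (PSMA2, PSMB3 and PSMB5) and of the lid (PSMD3). The sequences are from RefSeq on build GRCh38.p14 and run 5′ to 3′ on the gene's strand. Each is the longest run within the 250 bases before the transcription start that overlaps no exon of GENCODE 44, so no printed base is exonic. The stretches of PSMA2, PSMB3 and PSMD3 lie upstream of the annotated gene. That of PSMB5 lies upstream of its leading transcript but within the annotated gene, which spans chr14:23016543-23035230 on the minus strand because other transcripts start further upstream. Capitals mark 4 motifs searched on both strands: TGACNNNGC, the core of the antioxidant response element bound by NFE2L1 and NFE2L2; CCAAT; the GC box GGGCGG; and CCGGAAG, the core bound by ETS factors. None of the 4 motifs contains another.
PSMA2, chr7:42932215-42932375, minus strand: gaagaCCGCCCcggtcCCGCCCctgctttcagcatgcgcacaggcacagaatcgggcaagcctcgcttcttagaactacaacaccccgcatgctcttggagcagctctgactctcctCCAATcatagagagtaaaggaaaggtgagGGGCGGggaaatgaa
PSMB3, chr17:38752491-38752740, plus strand: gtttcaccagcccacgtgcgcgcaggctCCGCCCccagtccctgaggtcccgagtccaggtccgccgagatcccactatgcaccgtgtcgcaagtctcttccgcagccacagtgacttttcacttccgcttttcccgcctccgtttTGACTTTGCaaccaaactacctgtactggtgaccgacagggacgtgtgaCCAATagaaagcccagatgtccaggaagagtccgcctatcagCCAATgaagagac
PSMB5, chr14:23034901-23035111, minus strand: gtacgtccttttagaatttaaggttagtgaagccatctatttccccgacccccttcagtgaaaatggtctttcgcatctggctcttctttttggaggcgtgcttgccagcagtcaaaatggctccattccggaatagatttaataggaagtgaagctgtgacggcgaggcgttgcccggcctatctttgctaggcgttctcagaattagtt
PSMD3, chr17:39980557-39980806, plus strand: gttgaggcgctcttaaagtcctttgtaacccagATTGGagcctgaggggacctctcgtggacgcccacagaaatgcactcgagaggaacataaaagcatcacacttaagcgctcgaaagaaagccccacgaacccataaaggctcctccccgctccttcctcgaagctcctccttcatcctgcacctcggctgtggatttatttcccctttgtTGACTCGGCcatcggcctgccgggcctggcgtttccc
The printed PSMB3 stretch held matches to TGACNNNGC, CCAAT and GGGCGG, and that of PSMD3 held TGACNNNGC and CCAAT. The stretch of PSMA2 held CCAAT and GGGCGG, and the 211 bases of PSMB5 held none of the 4. PSMB5 is still counted among the members with CCAAT, since a match lies in promoter window bases outside the printed stretch.

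Promoter windows of 300 bases (250 before to 50 after the start) were at hand for 38 of the 44 members, in 46 windows. TGACNNNGC was present in 14 of the 46 windows (30.4%) and in 13.4% of all 35116 windows of the reference table. CCGGAAG was in 14 windows (30.4%), against 10.3% of all windows, and GGGCGG in 31 (67.4%), against 44.95%. CCAAT was in 18 (39.1%), against 34.6%. By part of the particle, TGACNNNGC was found for 1 of 6 alpha genes, 1 of 4 beta genes, 3 of 8 base genes, 2 of 8 lid genes, 3 of 5 activator and inhibitor genes and 4 of 6 assembly factors. CCGGAAG was found for 1 of 6 alpha, 0 of 4 beta, 3 of 8 base, 6 of 8 lid, 2 of 5 activator and inhibitor and 2 of 6 assembly factor genes. With so few genes in each part, differences between parts were not tested. These are matches of letters, chosen for search after the expression results were known, and no match says only that the letters are absent from the window.

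Subunits that occupy equivalent places in the particle had unequal RNA levels. On the TPM scale, which is per length, attached cells held from 62.2 ± 4.5 TPM of PSMA2 to 375 ± 18.1 TPM of PSMB4 among the 14 core ring genes (SD, n = 3), a 6.02-fold range. The 9 base genes spanned 12.8-fold, from PSMC2 at 61.2 ± 1.1 TPM to PSMC5 at 784 ± 13.6 TPM. PSMC5, an ATPase of the base, had the highest level of all members in each of the 9 libraries, followed by PSMC1, another ATPase, at 482 ± 27.9 TPM. The 8 lid genes were the most even, with a 3.42-fold range from PSMD7, the partner of the lid's deubiquitinase, at 82.6 ± 3.6 TPM to the scaffold subunit PSMD3 at 283 ± 7.3 TPM. These levels count all transcripts of a gene, including types other than protein coding, and the ranks depend on that. On protein-coding transcripts alone, attached PSMC1 was at 126 ± 9.8 TPM, below PSMA7 at 311 ± 8.9 TPM. PSMB2 was then the lowest core ring gene, at 25.7 ± 0.6 TPM, and PSMC5 was still highest, at 695 ± 22.2 TPM.

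Among the activators and the inhibitor, attached levels ran from 17.1 ± 0.7 TPM of PSME4, the nuclear activator PA200, to 308 ± 13.9 TPM of PSMF1, the inhibitor PI31. PSME1 and PSME2, whose products form the PA28αβ ring, were at 168 ± 4.4 and 189 ± 4.0 TPM. On protein-coding transcripts alone, PSMF1 was at 126 ± 7.3 TPM, below PSME1 at 154 ± 10.1 TPM. The assembly factors were lower, with 7 genes between 12.7 ± 1.0 TPM (PSMG4) and 106 ± 6.6 TPM (PSMD9). PSMB10, the inducible subunit that replaces PSMB7 in immunoproteasomes, was at 20.31, 16.58 and 16.97 TPM in the attached libraries, where PSMB7 itself was at 207, 216 and 203 TPM. Each class had the same lowest and highest gene in suspension vehicle cells, where the core ring genes spanned 5.39-fold and the base genes 11.5-fold.

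**Figure D1:**
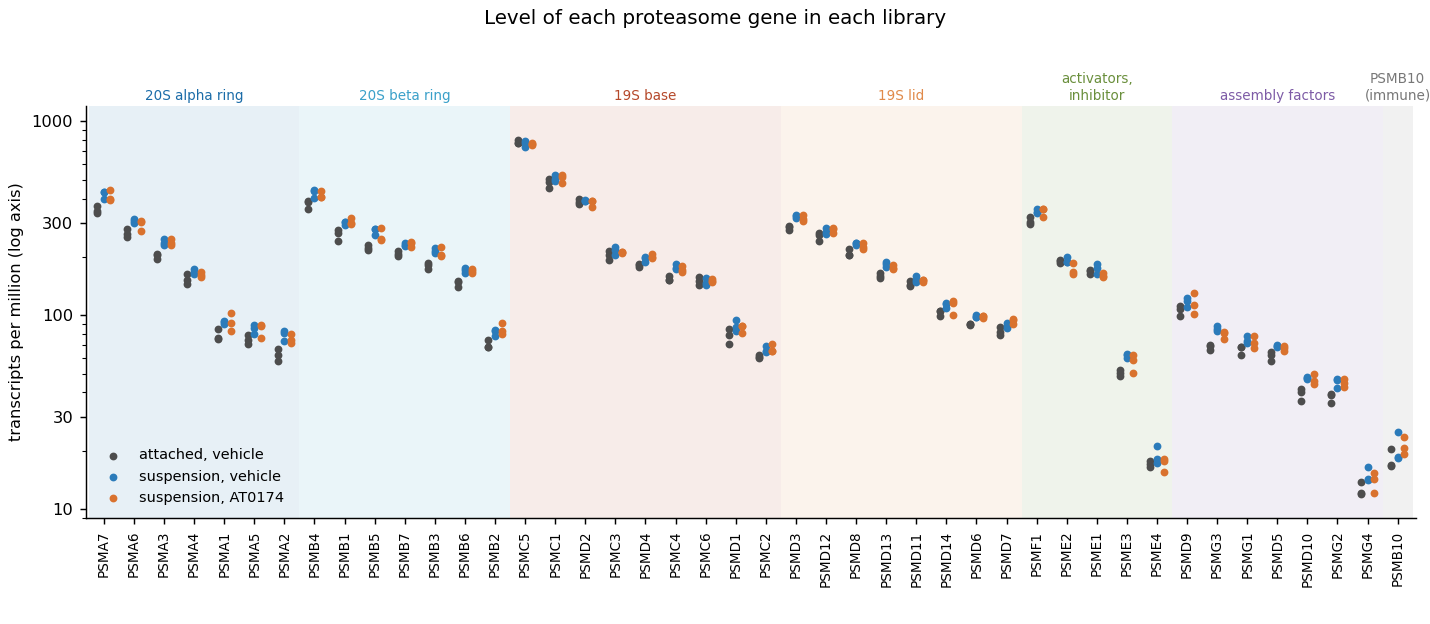
Level of each of the 44 members in each of the 9 libraries, in TPM on a log axis, with genes grouped by part of the particle and ordered by their attached mean. Each point is 1 library, and PSMC5 lies highest with an attached mean of 784 TPM, while PSMG4, PSME4 and PSMB10 lie lowest, between 12.7 and 18.0 TPM.

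The RNA of 10 of the 44 members changed by small amounts in suspension culture, 9 upward and 1 downward (edgeR quasi-likelihood test, Benjamini-Hochberg adjusted p below 0.05 over 15528 genes). Of the 9 that rose, 6 encode core rings (PSMA2, PSMA3, PSMA7, PSMB3, PSMB5 and PSMB6), 2 encode assembly factors (PSMD10 and PSMG3) and 1 encodes the lid scaffold (PSMD3). The ATPase PSMC5 fell. In all, 22.7% of the members were called, close to the 21.2% called among all genes tested (10.4% higher and 10.8% lower), so the number of calls did not set the members apart, and it is the distribution over the parts of the particle and the direction that are described. In bulk RNA, a change in the number of cells of a kind and a change in RNA per cell cannot be told apart.

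Of the 44 members, 38 had a positive log2 fold change. These included 7 of 7 assembly factors, 7 of 8 lid genes and 6 of 9 base genes. All 14 core ring genes were positive, from 0.014 for PSMA4 to 0.20 for PSMA2. Their median was 0.11, against −0.00025 over all genes tested. In 12 of them every suspension vehicle library lay above every attached library, which held for 19.4% of all genes, and 6 (42.9%) passed the test. PSMA2, an alpha subunit, had 60.4, 57.7 and 54.5 CPM (estimated counts relative to library size, scaled by trimmed means of M values) in attached cells and 64.4, 68.1 and 66.1 CPM in suspension vehicle cells. The groups did not overlap, and the change was 0.20 ± 0.045 on the log2 scale (± SE, adjusted p = 0.0085 by edgeR), the largest among the members.

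PSMB5, which carries the chymotrypsin-like active site and is the target of the inhibitor bortezomib, had 145, 140 and 142 CPM in attached cells and 156, 163 and 163 CPM in suspension vehicle cells. It rose by 0.17 ± 0.044 log2 (adjusted p = 0.0153 by edgeR). PSMB6, with the caspase-like site, had 67.9, 68.5 and 66.3 CPM against 72.5, 74.4 and 72.9 CPM and rose by 0.12 ± 0.032 log2 (adjusted p = 0.0220 by edgeR). In both genes all suspension libraries were above all attached ones. PSMB7, with the trypsin-like site, had 121, 125 and 123 CPM against 130, 125 and 124 CPM. These groups overlapped, and its difference of 0.040 log2 did not pass the test (95% interval −0.029 to 0.11, adjusted p = 0.411 by edgeR).

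PSMA7 had 197, 211 and 201 CPM in attached cells and 219, 234 and 232 CPM in suspension vehicle cells, a rise of 0.17 ± 0.043 log2 (adjusted p = 0.0162 by edgeR). PSMA3 rose by 0.14 ± 0.037 log2 (adjusted p = 0.0209), from 99.8, 93.7 and 95.4 CPM to 103.7, 105.4 and 108.6 CPM. The beta subunit PSMB3 went from 78.9, 78.0 and 76.1 CPM to 85.6, 87.8 and 85.1 CPM, a rise of 0.15 ± 0.038 log2 (adjusted p = 0.0153). In each of these the lowest suspension library was above the highest attached library. The 7 core genes that did not pass, besides PSMB7, had differences between 0.014 (PSMA4) and 0.12 (PSMA5) log2, with adjusted p from 0.0735 to 0.847. These differences count all transcripts. Protein-coding transcripts of PSMA5 alone did not rise, at 36.0 ± 1.7 TPM in attached and 35.6 ± 2.6 TPM in suspension vehicle cells (SD, n = 3). For every other core ring gene the protein-coding mean was higher in suspension, on a scale on which the median gene was 0.11 log2 higher.

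In the base, 0 of 9 genes rose and 1 fell, with a median log2 fold change of 0.023. PSMC5 had 643, 639 and 641 CPM in attached cells and 619, 564 and 589 CPM in suspension vehicle cells. Attached libraries were within 4 CPM of each other, suspension libraries were all lower and more spread, and the difference was −0.12 ± 0.034 log2 (adjusted p = 0.0271 by edgeR). The remaining 8 base genes lay between −0.037 (PSMC6) and 0.073 (PSMC4) log2, and all of their 95% intervals together ran from −0.12 to 0.14. The non-ATPase base subunits did not differ from this picture, with PSMD1 and PSMD2, the large scaffolds, at 0.041 and 0.030 log2 and the ubiquitin receptor PSMD4 at 0.023 log2.

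In the lid, 1 of 8 genes rose and none fell, with a median of 0.047 log2. PSMD3 had 400, 398 and 392 CPM in attached cells against 422, 424 and 418 CPM in suspension vehicle cells, without overlap, and rose by 0.087 ± 0.028 log2 (adjusted p = 0.0402 by edgeR). PSMD13 had the largest lid difference, 0.090 ± 0.030 log2, and missed the threshold (adjusted p = 0.0527). Its libraries were at 164, 159 and 159 CPM against 170, 174 and 169 CPM and did not overlap. PSMD14, the deubiquitinase of the lid, was 0.084 log2 higher with an adjusted p of 0.0868. PSMD6, PSMD7 and PSMD11 were between −0.013 and 0.017 log2.

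**Figure D2:**
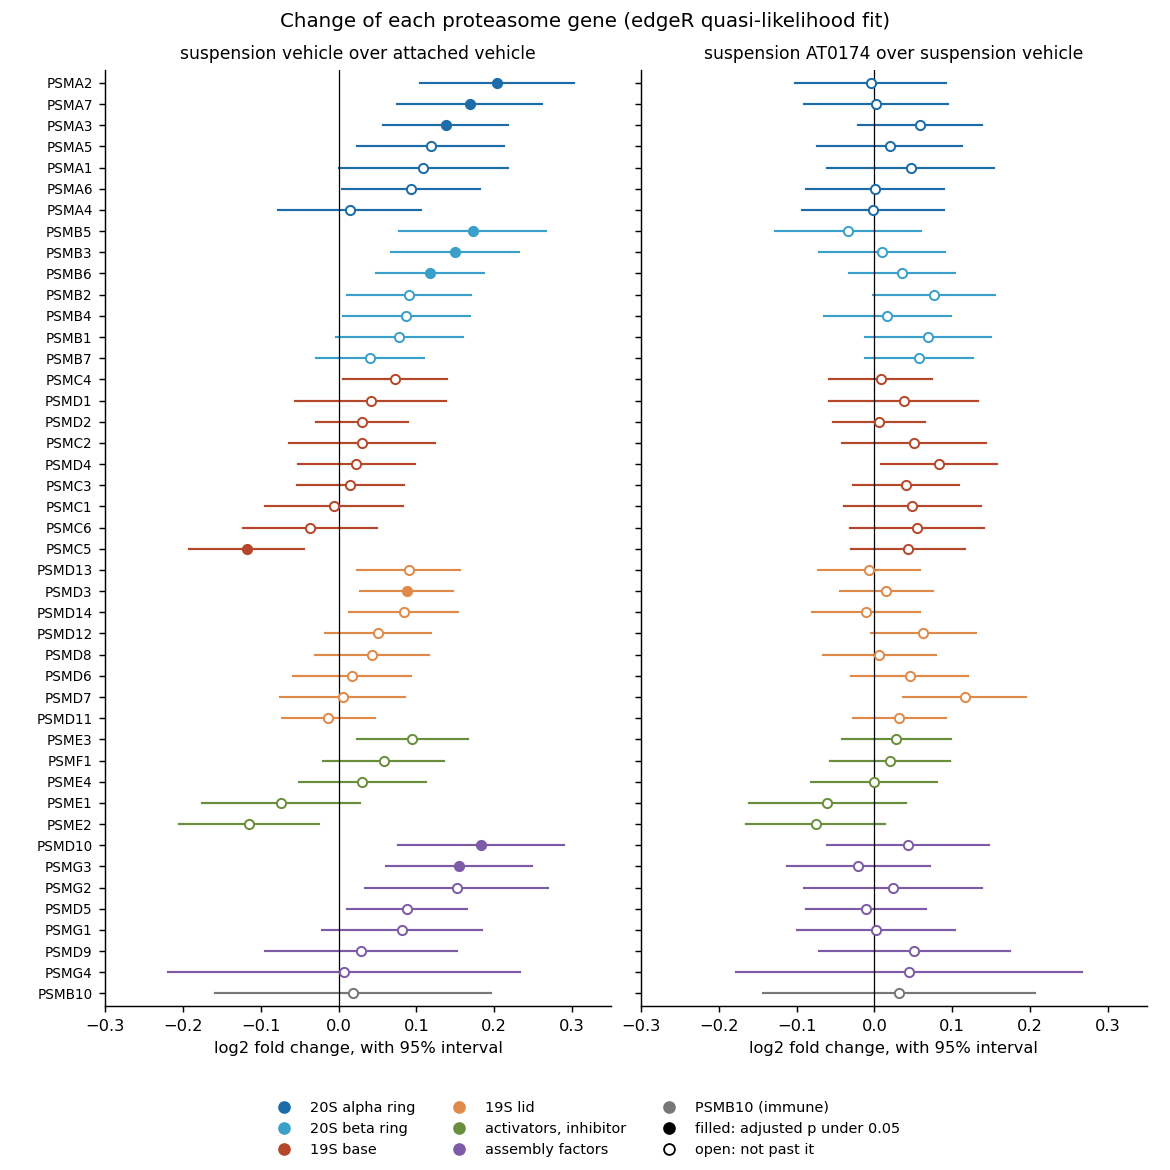
Log2 fold change with its 95% interval for each of the 44 members, in suspension vehicle over attached vehicle cells (left) and in suspension AT0174 over suspension vehicle cells (right), coloured by part of the particle. Filled points passed an adjusted p of 0.05 by edgeR: 10 on the left, of which 6 are core ring genes, and 0 on the right.

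Of the 5 activator and inhibitor genes, none passed the test, and their differences went both ways. PSME2 had 88.2, 87.2 and 88.8 CPM in attached cells and 83.3, 80.2 and 80.5 CPM in suspension vehicle cells. All suspension libraries were lower, and the difference of −0.12 ± 0.041 log2 missed the threshold (adjusted p = 0.0664 by edgeR). These counts cover all transcripts of PSME2. Its protein-coding transcripts alone went the other way, from 136, 134 and 121 TPM in attached to 158, 156 and 150 TPM in suspension vehicle cells. On the TPM scale the median gene was 0.11 log2 higher in suspension. PSME1, which lies 4394 bases from PSME2 on chromosome 14, was at −0.074 log2 with overlapping groups. PSME3, the nuclear activator PA28γ, was 0.095 ± 0.033 log2 higher without overlap (adjusted p = 0.0562). Reads of PSME2 may be shared with 6 processed copies whose counts summed to 1.07% of its own. For the other 15 members with such copies the sum was below 1% of the parent.

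Among the assembly factors, 2 of 7 rose and none fell, with a median of 0.088 log2. PSMD10, the chaperone of the base also called gankyrin, had 30.4, 30.4 and 28.5 CPM against 33.2, 34.8 and 33.3 CPM and rose by 0.18 ± 0.049 log2 (adjusted p = 0.0203 by edgeR). PSMG3, part of a chaperone pair for the alpha ring, had 41.2, 41.2 and 41.5 CPM against 43.5, 47.5 and 46.8 CPM and rose by 0.15 ± 0.043 log2 (adjusted p = 0.0242). The other chaperone genes did not pass, although PSMG2, the partner of PSMG1, was 0.15 log2 higher with an adjusted p of 0.0644. PSMG4, the partner of PSMG3, had the widest interval of all members, −0.22 to 0.23 log2, at about 8 CPM. PSMB10 was at 10.2, 9.57 and 9.35 CPM against 9.30, 10.8 and 9.38 CPM, with overlapping groups and a difference of 0.018 log2 (adjusted p = 0.901).

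**Figure D3:**
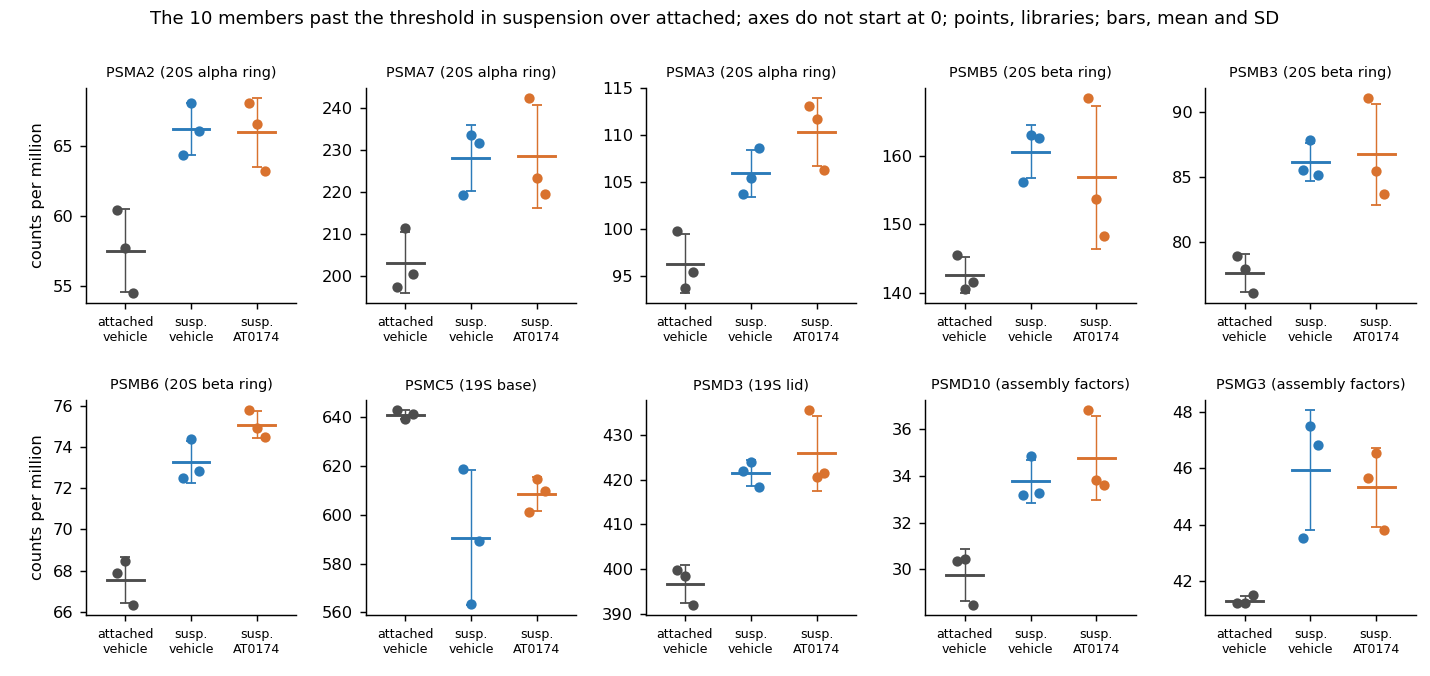
CPM of the 10 members that changed in suspension culture, in the 3 libraries of each condition, with the mean and SD as bars and axes that do not start at 0. In every panel the 3 suspension vehicle libraries lie on 1 side of the 3 attached libraries, above them for 9 genes and below them for PSMC5.

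These calls rested on few libraries. With libraries scaled by their totals alone, which raised the median gene by 0.047 log2, 21 members were called, all higher, and PSMC5 was not among them. Without the attached library 3 the number of members called fell from 10 to 2, without suspension vehicle library 2 to 2 and without suspension vehicle library 3 to 5. PSMA2 was the only one of the 10 that passed in all 18 alternative fits. PSMC5 lost its call in 6 of the 18 and PSMD3 in 9.

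Summed over its genes, the core rings rose from 1608, 1608 and 1548 CPM in attached cells to 1706, 1727 and 1717 CPM in suspension vehicle cells, a log2 difference of 0.11. The alpha ring (0.12 log2), the beta ring (0.10 log2), the assembly factors (0.10 log2) and the lid (0.054 log2) were also higher in every suspension vehicle library than in any attached one. The base did not follow, with 2265, 2230 and 2197 CPM in attached cells and 2269, 2166 and 2185 CPM in suspension vehicle cells, a difference of −0.016 log2 with overlapping groups. PSMC5 made up 28.7% of the base counts in attached cells, and without it the base difference was 0.024 log2. With libraries scaled by their totals alone the base difference changed sign to 0.032 log2, and on summed TPM to 0.043 log2, scales on which the median gene was also higher in suspension, by 0.047 and 0.11 log2.

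Ratios between parts of the particle do not depend on how libraries are scaled. The ratio of core to base counts was 0.710, 0.721 and 0.705 in attached cells and 0.752, 0.797 and 0.786 in suspension vehicle cells. It was 0.792, 0.768 and 0.755 in suspension AT0174 cells, so that all 6 suspension libraries lay above the 3 attached ones. The mean was 0.712 ± 0.0084 in attached and 0.778 ± 0.024 in suspension vehicle cells (SD, n = 3), a log2 difference of 0.13. It kept its direction without overlap when PSMC5 was left out (0.089 log2) and on summed TPM (0.18 log2), and lay between 0.11 and 0.15 log2 when any of the 6 libraries was left out. The ratio of core to lid was 1.099 ± 0.011 in attached and 1.14 ± 0.019 in suspension vehicle cells, and that of base to lid 1.54 ± 0.015 and 1.47 ± 0.022, each without overlap. All these ratios count every transcript of a gene, so the lack of overlap is given for all transcripts only. The ratios were not computed for protein-coding transcripts alone, where the core to lid ratio in particular may overlap. In the lid gene PSMD12, protein-coding transcripts went from 90.4 ± 5.2 TPM in attached to 112 ± 7.7 TPM in suspension vehicle cells. Its retained-intron form was at 141 ± 4.3 and 138 ± 16.8 TPM. On this scale the median gene was 0.11 log2 higher in suspension. Leaving PSMC5 out of the base reduced the difference in the base to lid ratio from −0.070 to −0.030 log2. Exact permutation of 3 against 3 libraries cannot give a p below 0.10, and no p is given for these sums.

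**Figure D4:**
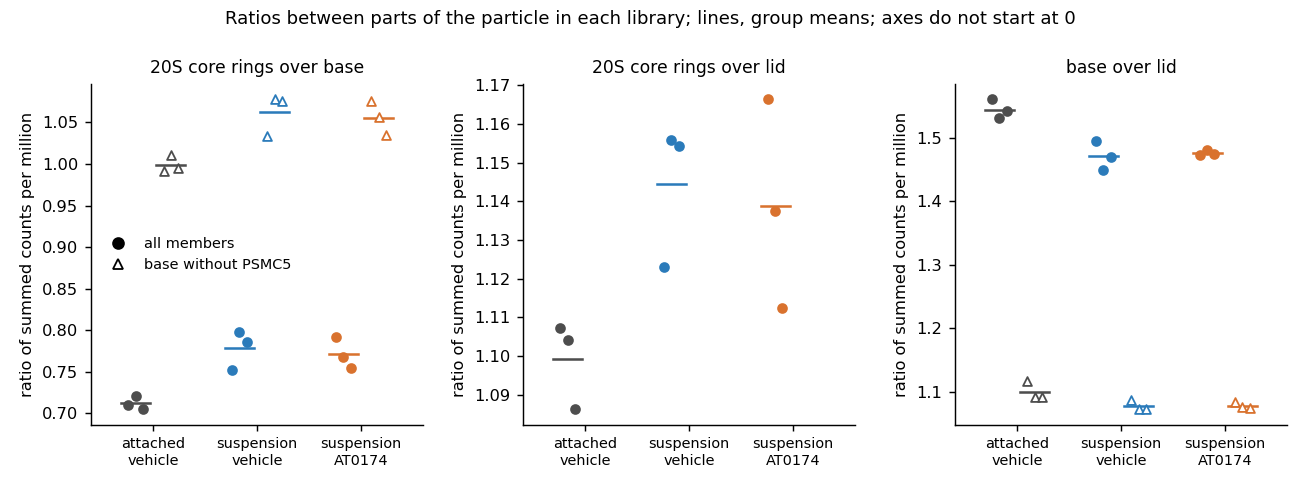
Ratio of summed CPM between the core rings, the base and the lid in each of the 9 libraries, for all members (circles) and with PSMC5 left out of the base (triangles), with group means as lines and axes that do not start at 0. The core to base ratio is 0.712 on average in attached cells and 0.778 and 0.772 in suspension cells with vehicle and AT0174.

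No member was called between AT0174 and vehicle in suspension cells. By edgeR, 0 of 44 genes passed an adjusted p of 0.05 and 2 (PSMD4 and PSMD7) had an unadjusted p under 0.05, against 0.779% of all genes called (0.522% higher and 0.258% lower) and 9.02% with an unadjusted p under 0.05. DESeq2 and limma-voom also called 0, each with 2 at an unadjusted p under 0.05. In 6 members (PSMB1, PSMB6, PSMC6, PSMD7, PSMD11 and PSMD12) all AT0174 libraries were above all vehicle libraries, which held for 7.75% of all genes, and in 0 all were below, against 7.66%. The log2 fold changes ran from −0.076 to 0.12 with a median of 0.026, and the 95% intervals of all 44 members together from −0.18 to 0.27. A p that misses the threshold does not show that levels were equal, and the median SE of a member's change was 0.037 log2.

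PSMD7 had the largest difference, with 88.9, 82.9 and 83.7 CPM in suspension vehicle cells and 93.5, 91.1 and 92.2 CPM with AT0174. All AT0174 libraries were higher, and the difference was 0.12 ± 0.036 log2 (adjusted p = 0.258 by edgeR). The ubiquitin receptor PSMD4 was at 150, 141 and 148 CPM against 157, 157 and 150 CPM, a difference of 0.083 log2 (adjusted p = 0.478) between groups that overlapped. The largest differences elsewhere were 0.076 log2 for PSMB2 in the beta ring, 0.059 for PSMA3 in the alpha ring, −0.076 for PSME2 and 0.051 for the base chaperone PSMD9, with adjusted p between 0.573 and 0.860. PSMB2 was at 116.6, 122.0 and 117.4 CPM with vehicle and 129.9, 121.1 and 124.4 CPM with AT0174. PSMD9 was at 50.5, 51.7 and 48.4 CPM with vehicle and 56.2, 52.0 and 47.8 CPM with AT0174. The groups overlapped in all 4 of these genes. For the active-site subunits the 95% intervals were −0.13 to 0.060 log2 (PSMB5), −0.033 to 0.10 (PSMB6) and −0.012 to 0.13 (PSMB7), and for PSMB10 −0.14 to 0.21.

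The summed class levels overlapped between AT0174 and vehicle for all classes, with log2 differences from −0.0095 for the activators and inhibitor to 0.034 for the base. The core to base ratio was 0.772 ± 0.019 with AT0174 against 0.778 ± 0.024 with vehicle (SD, n = 3), a difference of −0.012 log2 with overlap.

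Suspension AT0174 cells were also set against attached vehicle cells, a comparison that differs in culture and agent at the same time and shares its attached libraries with the first and its AT0174 libraries with the second comparison. There 20 members were called by edgeR, 19 higher and 1 lower, against 24% of all genes (12.2% higher and 11.8% lower). An unadjusted p under 0.05 was found for 28 members, against 36.6% of all genes. All AT0174 libraries were above all attached ones in 23 members (20.4% of all genes) and below in 3 (19.1%). The core rings held 11 of the 20, the lid 3, the assembly factors 3, the activators 2 and the base 1. For PSMA2 the difference was 0.20 log2 in either suspension group relative to attached cells. PSMC5 was −0.12 log2 in vehicle and −0.075 log2 in AT0174 cells (adjusted p = 0.127 by edgeR). PSME2 was −0.12 log2 in vehicle cells and fell by 0.19 log2 in AT0174 cells (adjusted p = 0.0060 by edgeR), with 75.1, 82.4 and 74.1 CPM. Its call was lost in 1 of 18 alternative fits, that with counts rebuilt from TPM (adjusted p = 0.0651 by edgeR). The protein-coding transcripts of PSME2 alone were not lower, at 130 ± 8.6 TPM in attached and 134 ± 8.1 TPM in AT0174 cells (SD, n = 3). The count of 20 fell to 7 without AT0174 library 1, to 8 without attached library 3, to 13 without attached library 1 or AT0174 library 2, and to 8 with counts rebuilt from TPM.

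The 10 members with the smallest p in this comparison included 7 core ring genes. In the AT0174 libraries, PSMA3 was at 113.1, 111.7 and 106.2 CPM, PSMA2 at 68.1, 66.6 and 63.2 CPM and PSMA7 at 242.5, 223.4 and 219.6 CPM. PSMB3 was at 91.1, 85.4 and 83.7 CPM, PSMB6 at 75.8, 75.0 and 74.5 CPM, and PSMB2 at the values given above, against 108.9, 115.1 and 110.5 CPM in attached cells. PSMB1, a structural beta subunit, was at 160.2, 157.5 and 149.7 CPM against 146.1, 141.9 and 134.0 CPM. All AT0174 libraries lay above all attached libraries in these 7 genes, with log2 differences from 0.15 (PSMB1) to 0.20 (PSMA2).
The other 3 were PSME2, which was lower, and PSMD10 and PSME3, which were higher without overlap. PSMD10 was at 36.8, 33.8 and 33.6 CPM with AT0174 (0.23 log2 over attached, adjusted p = 0.0059 by edgeR). PSME3 was at 91.7, 93.7 and 90.5 CPM with AT0174 and 85.0, 86.5 and 82.0 CPM in attached cells (0.12 log2, adjusted p = 0.0165). Of the remaining active-site subunits, PSMB5 was at 168.5, 153.7 and 148.3 CPM and PSMB7 at 133.2, 129.2 and 131.8 CPM, and both were called (0.14 and 0.097 log2), while PSMB10, at 10.7, 10.1 and 9.34 CPM, was not. The call of PSMB7 was lost in 13 of 18 alternative fits and that of PSMB5 in 6.

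Genes that work with the proteasome were taken from a list of 34, of which 33 were tested. NFE2L3, a relative of NFE2L1, had too few counts to be tested. In suspension culture 9 of the 33 rose and 1 fell (30.3%, against 21.2% of all genes). The median was 0.057 log2. POMP, the maturation factor that assembles the beta rings, had 90.5, 82.9 and 85.6 CPM in attached cells and 94.1, 103.4 and 103.8 CPM in suspension vehicle cells. It rose by 0.22 ± 0.049 log2 (adjusted p = 0.0081 by edgeR), in the same range as the largest core ring changes.

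NGLY1 and DDI2, which encode the glycanase and the protease that process the NFE2L1 protein, rose by 0.32 ± 0.040 log2 (adjusted p = 0.00039 by edgeR) and 0.19 ± 0.040 log2 (adjusted p = 0.0063). NGLY1 went from 35.3, 36.1 and 34.2 CPM to 43.8, 44.6 and 42.8 CPM, with no overlap. NFE2L1 itself was at 332, 340 and 321 CPM against 338, 310 and 311 CPM, and its difference of −0.051 log2 did not pass (adjusted p = 0.405). NFE2L2 was at 0.026 log2 (adjusted p = 0.679). USP14, a deubiquitinase that binds the base, rose by 0.20 ± 0.037 log2 (adjusted p = 0.0033), and UBE3C, a ubiquitin ligase found on the proteasome, by 0.093 log2. RPS27A, which encodes ubiquitin fused to a ribosomal protein, rose by 0.21 log2, and the ubiquitin gene UBB by 0.12 log2. PITHD1, a proteasome-associated protein, fell by 0.18 log2. The ubiquitin receptor ADRM1 (0.026 log2) and the small lid subunit SEM1 (−0.042 log2) did not pass. With AT0174, 0 of the 33 were called by edgeR and 4 had an unadjusted p under 0.05, and DESeq2 and limma-voom also called 0, with 4 each at an unadjusted p under 0.05.

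The RNA assigned to a gene can include transcripts that make no subunit. For PSMC1 the transcript with the highest TPM in attached cells was a retained-intron form of 606 bases, with 70.1% of the gene's TPM, for PSMD12 a retained-intron form with 55.0%, and for PSMB2 a form without a defined coding sequence with 63.5%. The split of reads between overlapping transcripts is an estimate by Salmon, and the transcript types are those of GENCODE 44. In 40 members a mean of 1% to 99% of the TPM fell on types other than protein coding, such as retained introns and forms subject to nonsense-mediated decay. This share was lower in all 3 suspension vehicle than in all 3 attached libraries for 9 of the 40, against 20.2% of 6367 genes treated alike, and higher for 2, against 3.79%. The members' counts were near the background in both directions. The median share over all 6367 genes was 20.6% to 22.4% in attached and 18.8% to 19.3% in suspension vehicle libraries.

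The 9 members with a lower share, a count near the background, were 4 base genes, 3 lid genes, PSMB4 and PSME2. They are too few to compare parts of the particle. PSMD2 had 23.8%, 25.0% and 23.4% of its TPM on such transcripts in attached cells and 17.3%, 12.5% and 13.8% in suspension vehicle cells. PSME2 went from 29.3%, 29.1% and 34.9% to 20.9%, 17.7% and 20.3%. PSMC5 went from 10.1%, 11.1% and 13.1% to 7.41%, 7.47% and 7.36%. Its protein-coding transcripts alone stood at 695 ± 22.2 TPM in attached and 708 ± 26.3 TPM in suspension vehicle cells, on a scale on which the median gene was 0.11 log2 higher in suspension. PSMA5 and PSMF1 went the other way, PSMA5 from 49.3%, 54.7% and 51.8% to 57.2%, 61.7% and 55.2%. With AT0174 against vehicle, the share was lower without overlap for 3 of the 40 (3.86% of all genes) and higher for 0 (4.08%). The 3 genes were PSMA3, PSMA6 and PSMB7. Between suspension AT0174 and attached cells it was lower for 9 (18.3% of all genes) and higher for PSMA5 and PSMB10 (3.94%).

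**Figure D5:**
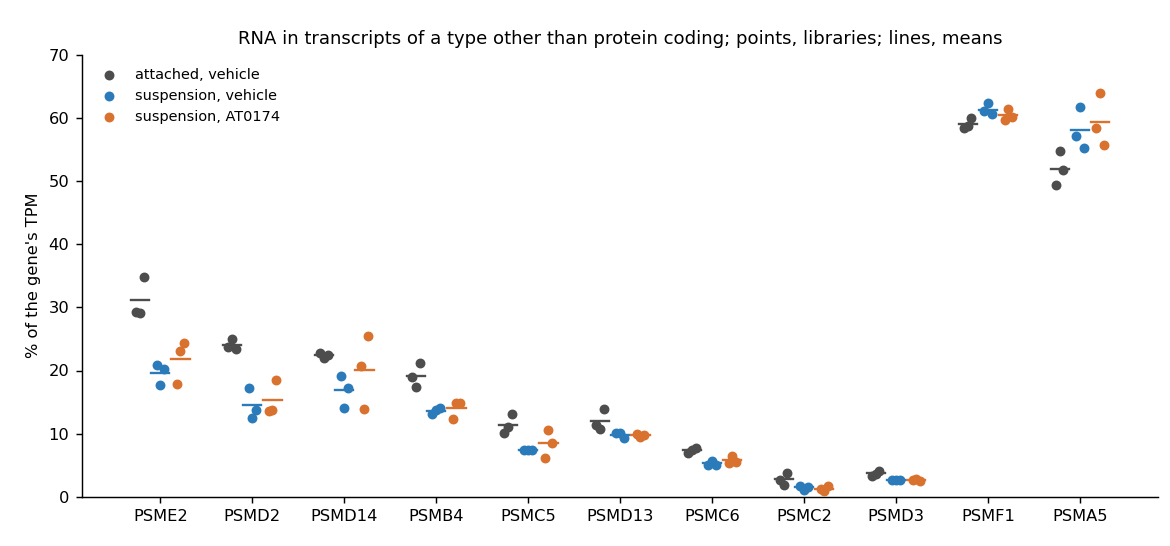
Share of each gene's TPM on transcripts of a type other than protein coding in the 3 libraries of each condition, for the 11 members whose attached and suspension vehicle libraries did not overlap. The share is lower in suspension vehicle cells for 9 genes, from 31.1% to 19.6% on average for PSME2, and higher for PSMF1 and PSMA5.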

How the data were processed

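RNA-seq of 9 MDA-MB-453 libraries was used. According to the study's methods and the processing notes, the authors trimmed reads with Trim Galore 0.6.7 and cutadapt 3.4, aligned them with STAR 2.7.9a to GRCh38 with Ensembl 104 genes, and quantified them with Salmon 1.10.1. The deposited gene table holds estimated counts, summed from transcripts without normalization, and the deposited transcript files hold TPM by the authors, which are normalized for length and to each library's total. The labels name a SMARTER mRNA kit and the study a NuGEN Universal Plus mRNA kit, and whether counting used strand is not given in the sources used here, so antisense and overlapping genes cannot be separated.

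Estimated counts were rounded. Groups came from the sample titles. The 15528 genes kept by filterByExpr were fitted over all 9 libraries with edgeR 4.0.16 in R 4.3.3 (quasi-likelihood test, TMM scaling, Benjamini-Hochberg adjustment), which shares 1 estimate of the spread. limma 3.58.1 and DESeq2 1.42.0 served as alternatives, and the code was tested on simulated data. CPM and class sums use TMM-scaled library sizes. Values per library are given for PSMB5, PSMB6, PSMB7, PSMB10, up to 10 called members per comparison with the smallest p, and the largest change per class in the first 2 comparisons. Of the partner genes, NFE2L1, NFE2L2, POMP, ADRM1, SEM1 and called genes of smallest p are named. UBB, UBE3C and PITHD1 were named in addition, after their values were seen, as were PSMD14, PSME1, PSME3, PSMG2 and PSMG4. The members and lists were chosen with earlier results of these data known. Promoter windows were matched by symbol. PSMA7, PSMB1, PSMB6, PSMB7, PSMD4 and PSMG3 had no window. Some genes of the marker and partner lists are counted but not reported here by name.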

Additional observations from a re-analysis of the deposited data

How the results depend on the processing

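With 3 libraries per group and called changes of at most 0.23 log2 in size, the count of members called depends on single libraries. In suspension over attached it was 10, 21 (all higher) with library totals only, 1 at an adjusted p under 0.01, and 2 to 11 when leaving out each library. For partner genes the 10 became 17, 6 and, leaving out libraries, 6 to 10. Library 3 of the attached and 2 of the suspension vehicle group gave the fewest, 6 each. In AT0174 suspension over attached, the 20 members became 8 with counts rebuilt from TPM, 7 at an adjusted p under 0.01 and 7 to 19 without single libraries. All counts in AT0174 over vehicle stayed at 0 in every alternative run.

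Class sums in suspension over attached, in log2, were with library totals only 0.16 (core), 0.17 (alpha), 0.15 (beta), 0.032 (base, sign changed), 0.10 (lid), 0.057 (activators) and 0.15 (assembly), and on summed TPM 0.22, 0.23, 0.21, 0.043 (base, sign changed), 0.14, 0.11 and 0.21. In AT0174 over vehicle they turned on summed TPM to −0.026, −0.036, −0.018, −0.0056, −0.016 and −0.046 (core, alpha, beta, base, lid, assembly), activators moved to −0.077, and the lid to 0.0081 with library totals. The median gene moved the same way, by 0.11 and −0.041 on TPM. Chosen after seeing the data, summed TPM changed the suspension ratios to 0.18 (core to base), 0.081 (core to lid) and −0.098 (base to lid), and leaving PSMC5 out to 0.089 (core to base), −0.030 (base to lid) and 0.024 (base level).

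Differences of uncalled genes changed sign near 0. With library totals only these were SEM1 (0.0049 in suspension over attached, 0.0095 in AT0174 suspension over attached) and NFE2L1 (−0.013 in AT0174 over vehicle), and with counts rebuilt from TPM NFE2L1 (−0.073) and NFE2L2 (0.016) in AT0174 over vehicle and SEM1 (0.013) in AT0174 suspension over attached. Leaving out libraries gave, in suspension over attached, −0.054 to 0.059 (PSMB10), −0.0088 to 0.045 (NFE2L2) and −0.10 to 0.00026 (SEM1). In AT0174 over vehicle it gave −0.019 to 0.10 (PSMB10), −0.0084 to 0.10 (PSMD9), −0.025 to 0.045 (NFE2L1), −0.037 to 0.014 (NFE2L2) and −0.039 to 0.089 (SEM1). In AT0174 suspension over attached it gave −0.00015 to 0.097 (PSMB10), −0.023 to 0.041 (NFE2L2) and −0.081 to 0.048 (SEM1). The causes were not tested.

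Replicate numbers gave no clear sign of pairing. Deviations from the group mean correlated at −0.19 to 0.34 for same-numbered libraries and at −0.44 to 0.36 for the others. Of 9 libraries, 3 correlated best with their own number. With 3 libraries per group this check cannot exclude pairing. With a replicate block the members called were 10, 0 and 19 and the partners 7, 0 and 12, and class sums are unchanged by construction.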
